A study of Drosophila melanogaster with 4 samples.

Results

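The Antennapedia complex is 1 of the 2 Hox gene clusters of Drosophila melanogaster and lies on chromosome arm 3R. It was taken here as the 360 kb from 2.48 to 2.84 Mb of 3R on FlyBase release 5, with lab at the low end and Antp at the high end, and a peak belonged to it if its midpoint fell in that range. By this rule 10 of the 4389 peaks of the list, and 10 of the 1048 peaks of 3R, were its members. The peaks mark DNA recovered with Abd-B-GFP, the product of a genomic Abd-B transgene in which GFP takes the place of the stop codon. The larvae were third-instar (wandering), labelled as strain Abd-B-GFP with the genotype w; PBac{y[+]-attP-3B}VK00037 and unknown sex. From them came 2 libraries of chromatin immunoprecipitated with a rabbit polyclonal antibody against GFP (ChIP) and 2 libraries of input DNA, and all 4 libraries carry the same genotype and transgene labels. The protocol text names a different stock, y; bw cn sp, and the strain labels were followed. The labels give no untagged strain, so a background of the antibody in larvae without GFP was not analysed here. The material was whole larvae, so a peak pools all cells, and few bound cells cannot be told apart from weak binding in many.

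Hox genes encode homeodomain transcription factors that give segments along the body axis their identity, and their order on the chromosome follows the order of the segments they pattern. Within the Antennapedia complex, lab, pb, Dfd and Scr act in the head and the first thoracic segment, and Antp acts in the thorax. The pair-rule gene ftz lies among them but acts in segmentation. Abd-B belongs to the bithorax complex, the other Hox cluster of the arm, and specifies the posterior abdomen and genitalia. In the embryo, the proteins of the bithorax complex keep Antp low in the posterior segments.

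The order of the genes was read from a RefSeq gene table on release 6, in which all 6 names (lab, pb, Dfd, Scr, ftz and Antp) were matched. Its coordinates belong to another build, so it was used for names and neighbours alone. From the low end, lab is followed by 8 cuticle protein genes of the Edg84A and Ccp84A names and then by pb. Between pb and Dfd stand zen2, zen and bcd, which act in the early embryo, the adhesion gene Ama and the microRNA gene mir-993. The microRNA gene mir-10, 4 lysine tRNA genes and 2 genes of 7SL RNA, the RNA of the signal recognition particle, stand between Dfd and Scr. Next come Scr, ftz and Antp. Only Antp has limits on the build of the peaks, at about 2.722 to 2.826 Mb, so peaks are placed relative to Antp and to each other, and not to the other genes.

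The 10 members ranged from weak to strong peaks, with long stretches without a peak among them. Their score, which is the peak caller's own value per peak as the authors deposited it and is not defined in the file, ran from 7.42 to 153.16 with a median of 33.06. The median was 14.12 for the other 1038 peaks of 3R. At or above the whole list's median of 15.46 stood 7 of the 10 members, against 463 of the other 1038. The members covered 5391 bp, or 1.50% of the complex, against 1.96% of the span of the other 3R peaks. The list gives 1 value per peak and none per library, so no value below has a replicate error and no difference below was tested.

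**Figure D1:**
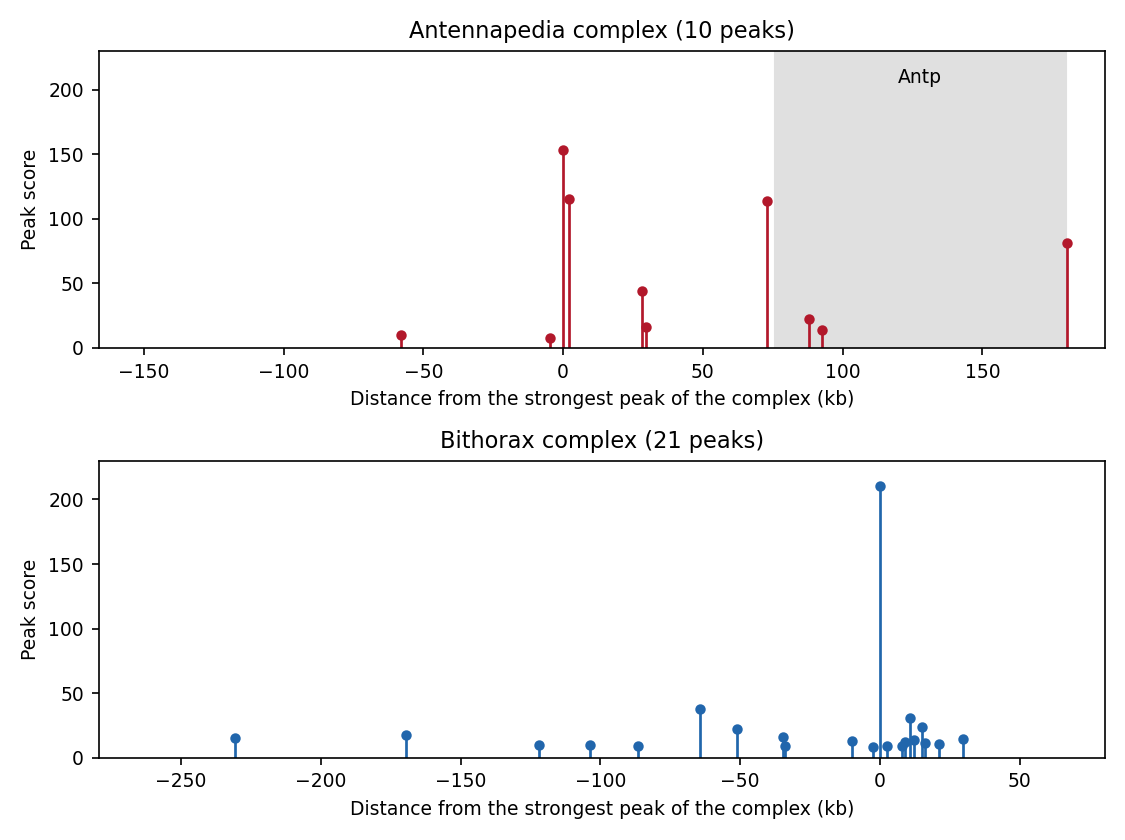
Peak score (vertical axis) against distance in kb from the strongest peak of each complex (horizontal axis), with 1 stem per peak. The upper panel shows the 10 peaks of the Antennapedia complex, with the approximate extent of Antp shaded, and the lower panel the 21 peaks of the bithorax complex; 3 stems of the upper panel and 1 of the lower exceed a score of 100.

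Read from the low end, the complex began with a long empty stretch. No peak was listed in its first 108.1 kb, the end at which lab stands, and this was 30.0% of its length. The stretch continued beyond the complex: from the last base of the previous peak, at 2300463, to the first member lay 287.6 kb, the fifth longest of the 1047 gaps between neighbouring peaks on 3R. The peak that ends this stretch was itself weak. It lay at 2588087 to 2588374, had a width of 288 bp and scored 9.73, above 15.0% of all peaks in the list. A further 53.0 kb without a peak followed it.

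The 2 strongest members stood side by side near the middle of the complex. The strongest spanned 877 bp, from 2645775 to 2646651, and scored 153.16, rank 39 in the whole list and rank 10 on 3R. Only 1039 bp separated it from the peak at 2647691 to 2648701, which was the widest member at 1011 bp and had a score of 115.12, rank 92 in the list. A weak peak stood 4205 bp below the strongest, at 2641363 to 2641569. It was the narrowest and lowest member, 207 bp wide with a score of 7.42, and 1.96% of all peaks scored lower. These 3 peaks formed the only run of 3 or more members with no gap above 5 kb. The run spanned 7.34 kb and held both the lowest and the highest score of the complex. Genes for tRNAs and 7SL RNA are often recovered in ChIP whatever the target. Whether the 2 strongest peaks, or any other member, lie on those listed above between Dfd and Scr was not analysed here. Whether their scores stand for binding by Abd-B-GFP alone cannot be told and was not tested.

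After a gap of 25.5 kb came a pair of unequal peaks, only 918 bp apart. The first, at 2674178 to 2674719, spanned 542 bp and scored 44.01, above 85.9% of the list. The second, at 2675638 to 2675954, spanned 317 bp and scored 15.91, close to the median of the list at 15.46. Another 42.9 kb without a peak separated this pair from the next member.

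Around Antp, the stronger peaks stood at or near its approximate limits and the weaker ones between them. The peak that spans 2718853 to 2719499 scored 113.35 with a width of 647 bp, and it ended 2501 bp below the approximate low limit of Antp. The last member, at 2826324 to 2826992, had a score of 81.20 and a width of 669 bp, and it began 324 bp above the approximate high limit. Since these limits are approximate, whether that peak falls just inside or just outside the gene cannot be told. Inside Antp lay 2 peaks, the first at 2733864 to 2734363 with a score of 22.10 and a width of 500 bp. The other lay 4237 bp farther on, at 2738601 to 2738933, with a score of 13.60 and a width of 333 bp. Both lay in the low part of the gene, and the remaining 87.1 kb up to the approximate high limit, 83.7% of its length, held none.

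Antp thus carried 1.92 peaks per 100 kb (exact Poisson 95% interval 0.233 to 6.95, 2 peaks in 104 kb), against 3.12 in the rest of the complex (1.35 to 6.16, 8 peaks in 256 kb). The intervals overlap widely and cover counting error only. If the last member is counted to the gene, Antp holds 3 of the 10. In 3 stretches of 120 kb each, the complex had 1 peak in the stretch nearest lab, 6 in the middle stretch and 3 in the stretch that is mostly Antp. The peak in the stretch nearest lab had a score of 9.73, whereas the middle stretch held all 3 scores above 100 and the stretch with Antp reached 81.20. Of the 3 scores above 100, 113.35 belongs to the peak that ends at 2719499, just below the border of the stretch with Antp. A small shift of that border would move this peak into the stretch with Antp.

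The gaps between the members ran from 918 to 87390 bp with a median of 14364 bp, against a median of 9872 bp among the other peaks of 3R. Of the 9 gaps, 4 were longer than 20 kb, and these separated the members into 5 groups of 1, 3, 2, 3 and 1 peaks. The longest, 87.4 kb between the second peak in Antp and the peak at its high limit, was the 74th longest of the 1047 gaps on 3R. Outside the limits of the range, the nearest peak below lay 179.5 kb from the low limit with a score of 20.95. The nearest above lay 22.9 kb from the high limit with a score of 23.67. The nearest members inside had scores of 9.73 at the low end, 108.1 kb from the limit, and 81.20 at the high end, 13.0 kb from it.

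High scores made up a larger share of the members than of the list. A score above 100 was reached by 3 of the 10 members (30.0%, exact Clopper-Pearson 95% interval 6.67 to 65.2%), against 3.19% of the whole list (140 of 4389 peaks) and 2.41% of the other 3R peaks (25 of 1038). A score above 50 was reached by 4 of the 10 (40.0%, 12.2 to 73.8%), against 11.7% of the list and 10.7% of the other 3R peaks. Peaks are not replicates and the 2 strongest members are close neighbours. With peaks less than 2 kb apart counted as 1 region, 2 of 8 regions of the complex exceeded 100 (25.0%, exact interval 3.19 to 65.1%), against 4.07% of the 3341 regions of the whole list and 3.08% of the other 780 regions of 3R. The low end of that interval lies below the share of the whole list and above that of the other 3R regions. The interval also takes regions as independent draws, so no conclusion is drawn from it.

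**Figure D2:**
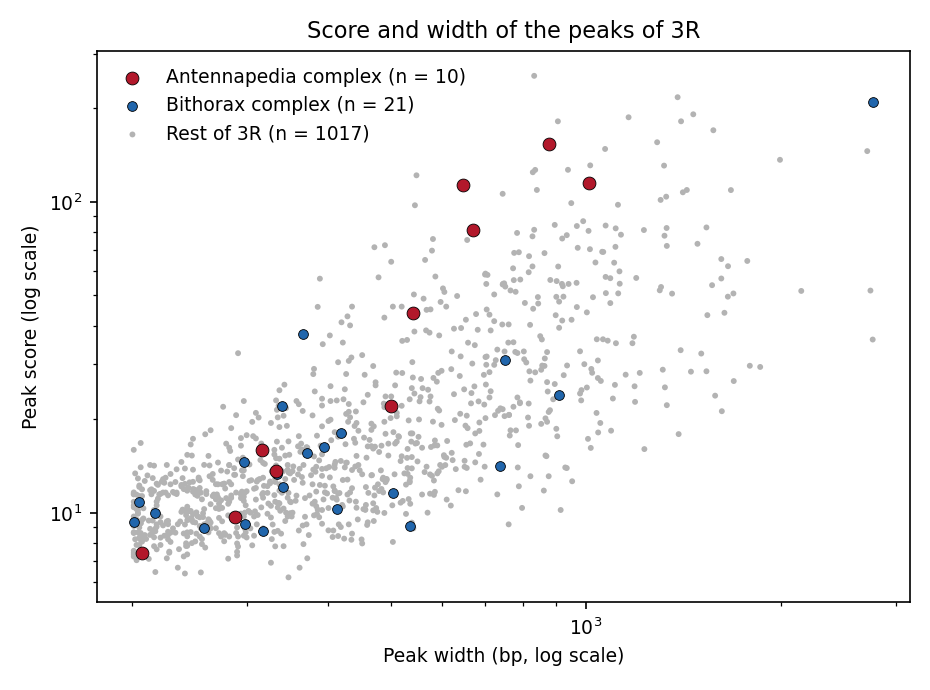
Peak score against peak width in bp, both on log scales, for the peaks of 3R, with 1 point per peak. The Antennapedia complex is shown by large red points, the bithorax complex by blue points and the rest of the arm in grey; the 3 highest red points, at widths of 647 to 1011 bp, lie toward the narrow side of the peaks with scores above 100.

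Among the members the order of the scores was nearly the order of the widths (Spearman's rho 0.96 over 10 peaks, against 0.76 over the other 3R peaks). This is a description, since both measures come from the same signal and the same libraries. The median width of the members was 521 bp, against 415 bp for the other 3R peaks. For their scores, however, most of the strong members were narrow. Each was set beside the peaks of the large arms (X, 3R, 3L, 2R and 2L) whose score was within a factor of 1.25 of its own. Of the 50 such peaks for the strongest member, 16.0% were narrower than its 877 bp, and their median width was 1172.5 bp. For the peak just below Antp, 9.90% of 101 peaks were narrower than its 647 bp, and their median was 1052 bp. For the peak at the high limit of Antp, 14.0% of 178 peaks were narrower than its 669 bp, and their median was 983 bp. The peak at 2647691, with a score of 115.12, came closest to that median, with 46.5% of 101 peaks narrower than its 1011 bp. For the member with a score of 44.01, 18.6% of 361 peaks were narrower than its 542 bp. Among the 5 members with lower scores, the share of narrower peaks was 14.0% for the lowest one and 27.8 to 50.9% for the others.

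Set against its arm, the complex lay somewhat below the middle in the number of its peaks and near the top in their median score. It had 27.8 peaks per Mb (exact Poisson 95% interval 13.3 to 51.1), against 37.2 per Mb for the other peaks of 3R over the span of the arm (35.0 to 39.5). Both intervals take peaks as independent of each other. Of the 1037 gaps among the other 3R peaks, 184 were under 1 kb, so the intervals may be too narrow. Of 2682 other windows of 360 kb on 3R, moved in steps of 10 kb, 33.1% held fewer than 10 peaks, 4.62% held 10 and 62.2% held more, with a median of 13. For covered length, 37.6% of the windows had fewer than the 5391 bp of the complex. Among peaks at or above the list's median score the complex stood above the middle instead, with 59.4% of the windows holding fewer peaks and 57.5% less covered length. With all peaks, 97.7% of the windows that held any had a median score below 33.06, and the median of all windows was 14.56. The 33.06 falls in a wide space between members with scores of 22.10 and 44.01, so it depends on single peaks. Of the 10 members, 5 did not exceed the upper quartile of the 3R scores, 25.3. As many as 3 peaks above 100 were found in 5 of the 2682 windows. These 5 overlapped, with starts 40 kb apart at most, and held the same 3 peaks, at 11619208 to 11620526 (score 130.81), 11798097 to 11799526 (109.20) and 11925064 to 11926226 (187.09). Over all large arms, 137 of 11599 such windows (1.18%) held 3 or more peaks above 100, and the most was 4. Windows that overlap share peaks, and these ranks describe the arm without testing it.

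**Figure D3:**
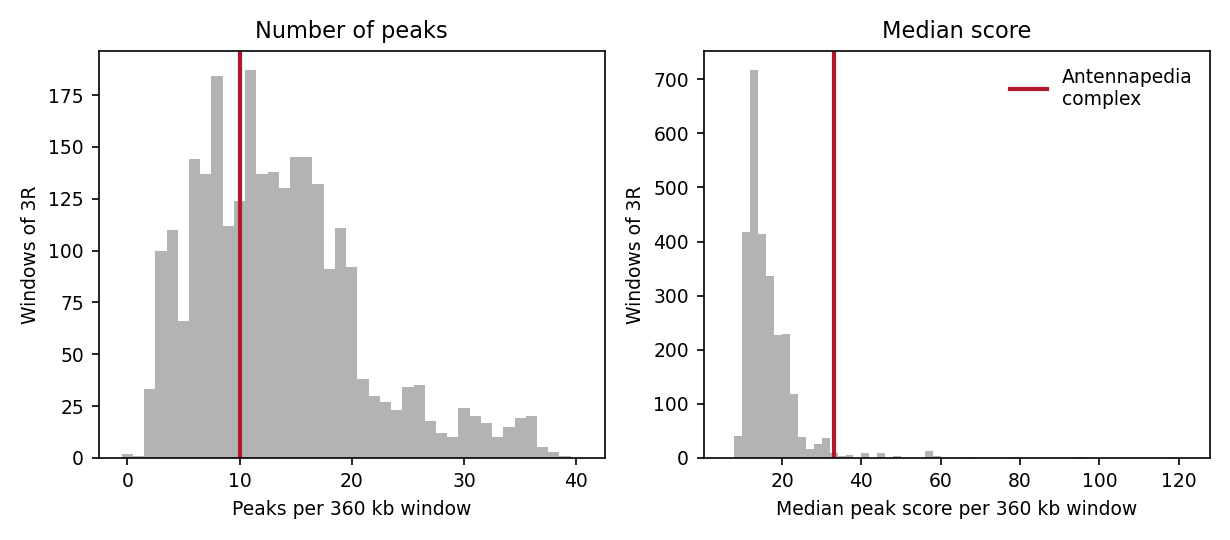
Number of 360 kb windows of 3R (vertical axes) by their number of peaks (left) and by their median peak score (right), for 2682 windows moved in steps of 10 kb that do not overlap the Antennapedia complex. The red line marks the complex, with 10 peaks below the middle of the left distribution and a median score of 33.06 in the upper tail of the right one.

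The bithorax complex, which holds Ubx, abd-A and Abd-B, held more peaks, and their median score was near that of the arm. It was taken as an equally long stretch, 12.48 to 12.84 Mb on 3R, with limits set by hand from general knowledge of the build. The Antennapedia complex had 10 peaks with a median score of 33.06, whereas the bithorax complex had 21 with a median of 13.29. For the peaks of 3R outside the Antennapedia complex, those of the bithorax complex included, the median was 14.12. Counted as rates, these were 27.8 peaks per Mb (13.3 to 51.1) in the Antennapedia complex and 58.3 (36.1 to 89.2) in the bithorax complex, and the exact Poisson 95% intervals overlap. Peaks covered 1.50% of the Antennapedia complex and 3.05% of the bithorax complex. The median gap was 14364 bp in the Antennapedia complex and 6140 bp in the bithorax complex. Scores above 100 numbered 3 in the Antennapedia complex and 1 in the bithorax complex. That 1 peak, at 12758120 to 12760885, had a score of 210.10, was 2766 bp wide and held 40.7% of the summed score of its complex. The strongest peak of the Antennapedia complex held 26.6% of the sum there. The next highest score in the bithorax complex was 37.67, below 5 of the 10 members of the Antennapedia complex. The transgene adds copies of Abd-B sequence, which belongs to the bithorax stretch and not to the Antennapedia complex, and the part of these copies in the values was not tested. With peaks below the list's median score left out, the numbers came to 7 in the Antennapedia complex and 8 in the bithorax complex.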

How the data were processed

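Chromatin immunoprecipitation and input DNA of third-instar larvae were sequenced (2 libraries each, grouped by sample title). Per the file headers, the deposited list is on FlyBase release 5 and comes from MACS. Per the submitters' processing notes, the tools included MACS2, BWA and CASAVA (1.7.0.2 and 1.7.0.3). Not given in the sources used here are the threshold, the read filters and the use of replicates and input. The authors deposited 1 score per peak, which the file does not define, and which was used to describe and rank peaks within this list. No value per library was used, so depth per library is unknown and intervals cover counting error between peaks only. All intervals take peaks as independent, so they may be too narrow where peaks cluster.

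Peaks were assigned by midpoint. Gaps are bases between the end of a peak and the start of the next. Peaks named are the 5 highest scores, the widest, the longest run, those beside the longest gap, and the first and last, and with only 10 members the others were given too. Members, lists and limits were chosen with earlier results of these data known. No genome of release 5 and no protein table was used, so the planned peak sequences, motifs and homeodomain comparison were not made. No test was run, because the list holds no samples. Calculations used Python 3.11.15, numpy 2.4.6, pandas 2.3.3 and scipy 1.17.1, with plots from matplotlib 3.10.9. Window counts, counts above the score limit, gaps and merging were checked on a simulated list, and the other calculations were not.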

Additional observations from a re-analysis of the deposited data

How the results depend on the processing

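Of the alternatives, those on the bithorax complex, on merged widths, on score with width, on a score above 50 in place of 100 and on merging peaks less than 2 kb apart were chosen after seeing the data, and the others earlier, with previous results of these data known. The list limited to scores of at least 15.46 left 7 members. In it the median score of the members was 81.20, a rise that the limit itself brings, and their score and width had a Spearman's rho of 0.93. The complex turned from below to above the middle of the 3R windows, as the share below it moved to 59.4% for the number of peaks and 57.5% for the covered length, and the rate in Antp to 0.962 peaks per 100 kb. The Antennapedia complex then had 1 peak fewer than the bithorax complex (a difference of -1), and a median score 58.21 higher. Merging peaks less than 1 kb apart left 9 members with a median score of 44.01, and the difference in number between the 2 complexes was -7. Against windows of all major arms, 38.9% had fewer peaks, 45.4% less covered length and 95.5% a lower median score. Against windows of 3R that do not overlap each other, 98.7% had a lower median score. With a largest gap of 2 kb, 0 runs of 3 or more remained. Counting peaks by any overlap with the range left the number of members at 10. The causes were not tested. No paired analysis was possible because the list keeps no library apart, and no replicate could be left out for the same reason. Depth limits the weakest peaks first, and the depth of the libraries is unknown.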

Other observations

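Few neighbouring peaks both exceeded a score of 100, a score that only 140 of the 4389 peaks (3.19%) exceeded. Of 4105 pairs of neighbours on the major arms, 8 had both scores above 100, and in 5 of these the gap was 5 kb or less. The pair in the middle of the Antennapedia complex was the only one of the 5 on 3R, with scores of 153.16 and 115.12 and a gap of 1039 bp. The pairs with smaller gaps lay on 3L, at 11001736 to 11004186 with scores of 124.57 and 149.46 and a gap of 373 bp, and on X, at 4318953 to 4321221 with scores of 133.19 and 122.44 and a gap of 965 bp. The other 2 lay on 2R. One had a gap of 2700 bp and scores of 202.58 and 172.02, and the other a gap of 4053 bp and scores of 264.05 and 163.97. This count was made after the scores of the members had been seen and was not tested.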
